A study of Rattus norvegicus with 20 samples.

Results

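Agrp and Npy encode the agouti-related peptide and neuropeptide Y, the 2 peptides made together by the hunger-promoting neurons of the hypothalamic arcuate nucleus. Probes were chosen by gene name alone, without any measured value, which gave 3 of the 30367 probes that are not controls and 12 of their 42877 spots per array. All 3 probes passed the filter on dim signals, so both genes were among the 17086 tested.

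AgRP neurons release both peptides together with the inhibitory transmitter GABA and drive feeding. Agouti-related peptide blocks the melanocortin receptors encoded by Mc3r and Mc4r, at which the products of the neighbouring Pomc neurons act, and also lowers their resting activity. Neuropeptide Y acts on its own family of receptors, among them those encoded by Npy1r and Npy5r. In adult rats both transcripts rise with fasting and are held down by leptin and insulin. Npy is also made by many interneurons elsewhere in the brain, whereas Agrp in the brain is nearly restricted to the arcuate nucleus.

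The arcuate nuclei of 20 female Sprague-Dawley rats were profiled at postnatal day 15, with 4 animals in each of 5 conditions. SNS rats were born to dams injected with saline, had no induced spasms and were injected only with saline after birth. In the other 4 conditions the dam received 2 injections of betamethasone, a synthetic glucocorticoid, of 0.4 mg/kg each on gestational day 15. BNS rats had no induced spasms and got saline in place of N-methyl-D-aspartate (NMDA) and in place of the treatments. BYS, BYA and BYP rats had spasms triggered by NMDA on postnatal days 12, 13 and 15 and were given saline (BYS), adrenocorticotropic hormone (ACTH, BYA) or PMX53, an antagonist of the complement C5a receptor (BYP). The labels place these treatments, and the saline given in their place in SNS and BNS, on postnatal days 13, 14 and 15. The methods of the study start the treatments on the day of the first trigger. The comparisons ask whether the prenatal steroid, the spasms and the 2 treatments go with a change of the transcriptome.

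SNS, BNS, BYS and BYP each lay on 1 slide of their own, and BYA on 2 further slides, so slide and condition cannot be told apart. The median signal of a sample's spots over their background was highest in BNS (14.0 to 19.8) and BYS (13.9 to 19.9), and reached at most 11.3 in SNS, BYA and BYP. SNS stood apart from the rest. Against SNS, 28.6% of the genes were called in BNS, 27.1% in BYS, 31.3% in BYA and 28.9% in BYP, a call being a limma adjusted p below 0.05 over all genes. Among the betamethasone conditions the share was 0.0293% for BYS against BNS, 0% for BYA against BYS, 0.0351% for BYP against BYS, 0.158% for BYP against BYA, 0.117% for BYA against BNS and 1.5% for BYP against BNS. For BYA against BYS, 1379 genes had an unadjusted p below 0.05. The dye label of BYA replicate 3 does not match the order of names given for its raw data, and the other channel of that array holds a male rat of another series, so that which animal was read is not certain. Without it, 26 genes were called for BYA against BYS in place of 0, 265 for BYP against BYA in place of 27 and 171 for BYA against BNS in place of 20. No comparison of BYA with another condition was called for Agrp or Npy, with or without it. Levels are log2 normalised intensities, in which a difference of 1 stands for a ratio of 2. They compare 1 gene between animals and not 1 gene with another.

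Agrp was read by 1 probe, printed once on each array. It lies on the minus strand of chromosome 19 (rn4, chr19:35386739-35386798), and its 60 bases are shown because every Agrp value below rests on them. Capitals mark the triplet TGC, a codon for cysteine, at 3 places in the frame that starts at the first base. This is 1 of the 2 frames of the probe without a stop codon. The mature peptide is known for its cysteine-rich end, which binds the melanocortin receptors.

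Agrp probe: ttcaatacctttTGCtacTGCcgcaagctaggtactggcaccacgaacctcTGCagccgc

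Npy was read by 2 probes on the plus strand of chromosome 4. The first, A_42_P771373 (rn4, chr4:78045125-78045184), was printed 10 times and holds AATAAA, the letters of the polyadenylation signal, from base 45 of its 60. The second, A_64_P137042 (rn4, chr4:78043176-78043235), was printed once and is shown whole in lower case. It is shown because it gave the larger differences from SNS, as described below. The longest run of bases shared by any pair of the 3 probes was 5.

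Npy probe A_64_P137042: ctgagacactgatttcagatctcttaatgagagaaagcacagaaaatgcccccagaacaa

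All spots of the 3 probes were well above background in every sample and none was saturated. The signal was 204 to 1640 times the local background for Agrp, and at least 129 times for Npy. Mean levels of 95.6% of the genes were lower than that of Agrp and of 96.1% lower than that of Npy, as a statement on brightness in these samples and not on molecules. Of the Npy spot values, 15 of 200 on the first probe were marked as outliers and left out, and none of the 20 on the second or of the 20 on the Agrp probe. Spots of the first Npy probe varied within a sample with a median SD of 0.188 on the log2 scale.

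The level of Agrp did not differ between conditions beyond the spread between animals. It was 13.89, 14.45, 14.94 and 14.11 in SNS replicates 1 to 4. In BNS it was 13.88, 14.83, 16.03 and 14.55. In BYS it was 14.54, 14.60, 14.31 and 14.69. The highest BNS animal, replicate 3, lay above every other animal, and the lowest BNS animal (13.88) was level with the lowest SNS animal (13.89). BYA read 14.92, 14.98, 14.95 and 14.84, and BYP read 14.35, 14.51, 15.92 and 13.76. The order of the means from high to low was BYA (14.92 ± 0.0607, SD, n = 4), BNS (14.82 ± 0.896), BYP (14.63 ± 0.914), BYS (14.53 ± 0.161) and SNS (14.35 ± 0.458), and this order was not stable: BYP was lowest when channels were scaled to the same median, and BYS was lowest with the processed signals of the extraction software.

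**Figure D1:**
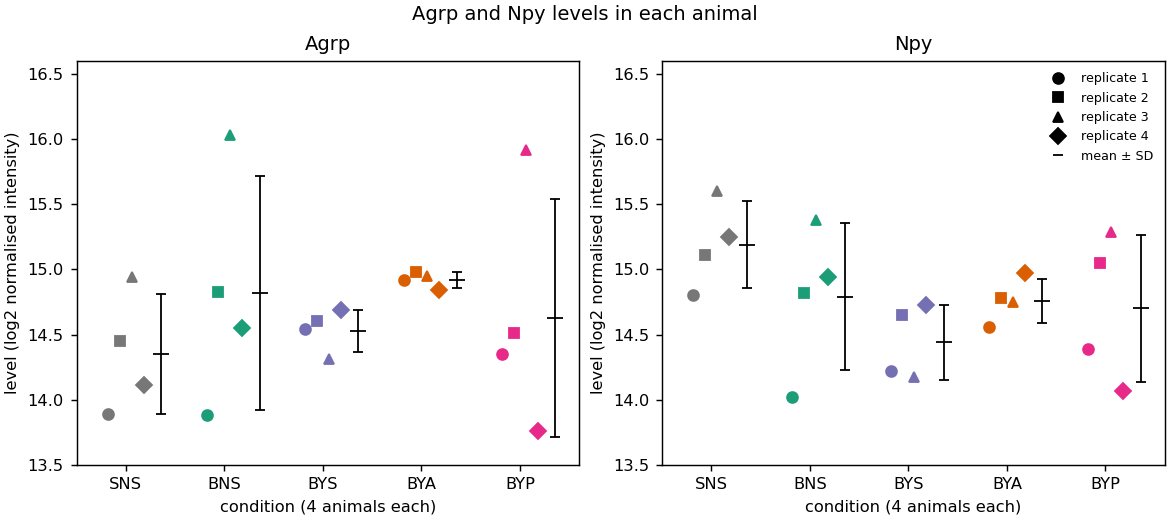
Level of Agrp (left) and Npy (right) as log2 normalised intensity on the vertical axis for the 20 animals, by condition, with symbols for the replicate number and the mean ± SD of 4 animals beside them. Agrp of BNS and BYP runs over 2.15 and 2.16 log2 units, while the 4 BYA animals lie within 0.14, and Npy is highest on average in SNS.

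None of the 10 comparisons of Agrp was called, beside the shares of 0% to 31.3% of all genes given above. The moderated F test over the 5 conditions gave adjusted p = 0.676, where 30.3% of the genes were called. The largest difference was BYA over SNS, at 0.58 (SE 0.389, 95% interval -0.24 to 1.39, limma adjusted p = 0.272), a ratio of 1.49. Without BYA replicate 3 it was 0.61 (limma adjusted p = 0.304). BNS minus SNS was 0.48 (interval -0.34 to 1.29, limma adjusted p = 0.368), and this difference was -0.02 when channels were scaled to the same median. It fell to 0.09 without BNS replicate 3 and was 0.86 without BNS replicate 1. Spasms against no spasms, BYS minus BNS, gave -0.29 (interval -1.11 to 0.53, limma adjusted p = 0.972). The absence of a call does not show that levels were equal.

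For the treatments, BYA minus BYS was 0.39 (interval -0.43 to 1.21, limma adjusted p = 0.847), or 0.42 without BYA replicate 3, and BYP minus BYS was 0.10 (interval -0.72 to 0.92, limma adjusted p = 0.979). All 4 BYA animals read higher for Agrp than all 4 BYS animals. Such a separation was seen for 4.11% of the genes in that comparison, and limma, which pools the spread over conditions, did not call it. The exact two-sided permutation test gave p = 0.0286, the smallest it can give here, and 0.286 after adjustment over the 10 comparisons of Agrp. BYA and BYP differed by -0.29 (BYP minus BYA, limma adjusted p = 0.799) and their animals overlapped.

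The animals of a condition differed in Agrp far more in some conditions than in others. In BNS, 99.7% of the genes had a smaller SD than Agrp, and in BYP 99.3%. In BYA only 4.76% had a smaller SD, and in BYS 51.3%. Over all conditions 98.8% of the genes had a smaller residual SD than Agrp (0.618), and 95.2% a smaller one than Npy (0.424). The median SD of all genes was between 0.125 and 0.181 in the 5 conditions, so the wide spread of BNS and BYP was not shared by most genes.

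Npy was lower in BYS than in SNS, the 1 called difference of the 20 tested for the pair. Npy read 14.80, 15.11, 15.60 and 15.25 in SNS replicates 1 to 4, and 14.22, 14.65, 14.17 and 14.73 in BYS, so every BYS animal lay below every SNS animal. The difference was -0.75 (SE 0.271, 95% interval -1.31 to -0.18, limma adjusted p = 0.0485), a ratio of 0.596. In that comparison 27.1% of the genes were called, 12.6% as lower in BYS, and 27.1% had groups that did not overlap, so the call placed Npy among a large share of the genes that separate SNS from BYS. The call was a near one: it held without SNS replicate 1 or BYS replicate 4 (adjusted p = 0.0437 and 0.0494) and was lost without any other of the 8 animals, with adjusted p from 0.0646 to 0.145. The difference was between -0.54 and -0.85 in all scalings tried, but the call was lost in 3 of the 4 others (limma adjusted p = 0.233, 0.0725 and 0.063). It was also lost when arrays were a random block (limma adjusted p = 0.17) and with the methods' test (adjusted p = 0.0865). The exact permutation test gave p = 0.0286, the smallest it can give here, and 0.286 after adjustment. A comparison alone at that smallest p cannot pass after adjustment, so this test could not decide on the call.

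In the other conditions Npy read 14.02, 14.82, 15.38 and 14.94 in BNS, 14.56, 14.78, 14.75 and 14.97 in BYA, and 14.39, 15.05, 15.29 and 14.07 in BYP. These values overlapped with those of SNS, in which the lowest animal read 14.80. SNS had the highest mean (15.19 ± 0.332, SD, n = 4), followed by BNS (14.79 ± 0.565), BYA (14.76 ± 0.168), BYP (14.70 ± 0.567) and BYS (14.44 ± 0.288). SNS stayed highest under all 5 scalings, and BYS was lowest in all but the scaling to the same median, in which BYP was lowest. The means of BNS, BYA and BYP lay within 0.09 of one another, less than the SD of any of them.

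Against SNS, Npy differed by -0.40 in BNS (interval -0.97 to 0.17, limma adjusted p = 0.271), by -0.42 in BYA (interval -0.99 to 0.14, limma adjusted p = 0.243) and by -0.49 in BYP (interval -1.06 to 0.08, limma adjusted p = 0.178). Without BYA replicate 3 the BYA difference was -0.44 (limma adjusted p = 0.283). With channels scaled to the same median, BNS and BYP were called as well, at -0.91 and -1.05 (limma adjusted p = 0.0283 and 0.0122). The F test over the conditions gave adjusted p = 0.233. Among the betamethasone conditions no difference of Npy was called, and the largest were BYS minus BNS at -0.34 (interval -0.91 to 0.22, limma adjusted p = 0.905) and BYA minus BYS at 0.32 (interval -0.25 to 0.89, limma adjusted p = 0.804), or 0.30 without BYA replicate 3. BYP minus BYS was 0.25 (interval -0.31 to 0.82, limma adjusted p = 0.887), and its sign turned to -0.27 with scaling to the same median.

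**Figure D2:**
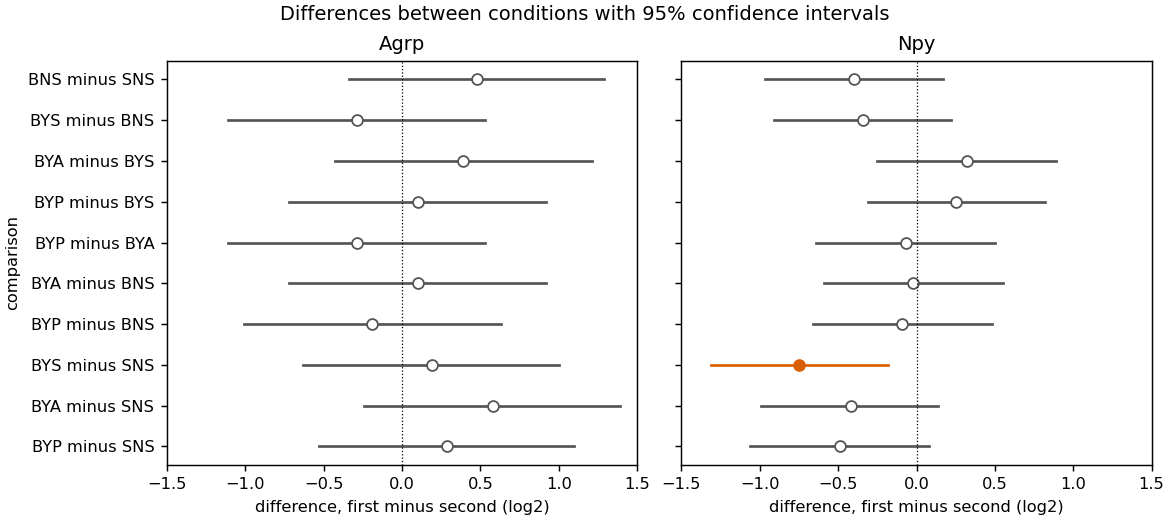
Difference in log2 level, first minus second condition, on the horizontal axis for the 10 comparisons of Agrp (left) and Npy (right), with 95% confidence intervals from the limma fit of 20 animals. The filled orange point marks the 1 called difference, Npy in BYS minus SNS at -0.75, and every other interval includes 0.

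The 2 Npy probes gave the same direction against SNS and different sizes. A_64_P137042 read lower than SNS by 0.62 in BNS, 0.78 in BYS, 0.66 in BYA and 0.70 in BYP on the log2 scale (limma adjusted p over all probes from 0.0625 to 0.132, none called). A_42_P771373 gave differences of -0.19, -0.71, -0.19 and -0.28 in the same order, and BYS was called (limma adjusted p = 0.0394). Over the 20 animals the 2 probes correlated with r = 0.798, and with r = 0.947 once condition means and dye were removed. They put the animals in the same order in SNS and in different orders in the other 4 conditions. In BYA, replicate 3 was lowest on A_42_P771373 (15.86) and highest on A_64_P137042 (13.64). The probes also differed in size on the comparisons with BYS, where A_42_P771373 gave -0.52 for BYS minus BNS, 0.52 for BYA minus BYS and 0.43 for BYP minus BYS. A_64_P137042 gave -0.17, 0.12 and 0.08 for the same comparisons, and none of these 6 differences was called.

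The 2 genes were also compared with each other. Within each animal the Agrp level was taken minus the Npy level, a value with no meaning by itself since the probes differ, but comparable between animals. It was -0.91, -0.66, -0.66 and -1.14 in SNS, and between -0.38 and 0.65 in BNS, -0.05 and 0.32 in BYS, -0.12 and 0.36 in BYA and -0.53 and 0.63 in BYP. All 16 animals exposed to betamethasone lay above all 4 SNS animals. The mean differences from SNS were 0.88 in BNS, 0.93 in BYS, 1.00 in BYA (0.99 without BYA replicate 3) and 0.78 in BYP, ratios of 1.84, 1.91, 2.00 and 1.72. Each gave p = 0.0286 in the exact two-sided permutation test, the smallest that 4 against 4 allows, and 0.0715 after adjustment over the 10 comparisons, which does not pass 0.05. The 6 comparisons among the betamethasone conditions gave differences between -0.22 and 0.12 with exact p of at least 0.514.

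Relative to Npy, many other genes separated in the same way. Of 16298 genes, 7.05% had their level minus that of Npy higher in all 16 betamethasone animals than in all 4 SNS animals. Per comparison, such a shift relative to Npy in the direction of Agrp was seen for 9.85% of the genes in BNS, 42.8% in BYS, 27.7% in BYA and 12.5% in BYP. With A_42_P771373 alone in the place of Npy, BNS, BYS and BYA still did not overlap with SNS, while BYP did. With A_64_P137042 alone none of the 4 overlapped with SNS. With the processed signals of the extraction software, which are normalised between the dyes within each array, the 4 differences from SNS fell to between 0.22 and 0.39 (adjusted p of the exact permutation test from 0.286 to 0.762). SNS animals share 1 slide, and the part of the slide in the difference was not tested.

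**Figure D3:**
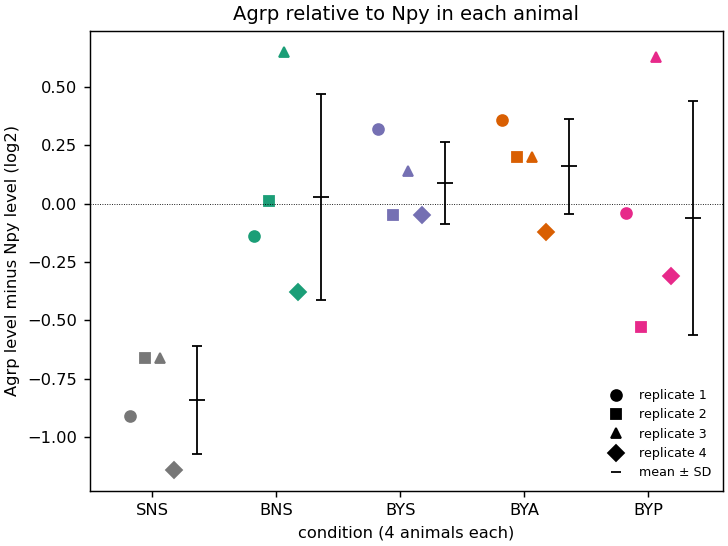
Agrp level minus Npy level (log2, vertical axis) in each of the 20 animals by condition, with the mean ± SD of 4 animals. The SNS animals lie between -1.14 and -0.66, below all 16 animals of the betamethasone conditions, which lie at -0.53 or above.

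Within 4 of the 5 conditions the animals high in Agrp were mostly high in Npy. In BYS the 4 animals stood in the same order for both genes, with replicate 3 lowest and replicate 4 highest. Replicate 3 was highest for both genes in SNS, BNS and BYP, replicate 1 was lowest for both in SNS and BNS, and replicate 4 was lowest for both in BYP. BYA did not follow this, with replicate 4 lowest for Agrp (14.84) and highest for Npy (14.97). The other BYA animals stood in the same order for both genes, and all 4 lay within 0.14 for Agrp. After removal of condition means and dye, Pearson's r was 0.926 and Spearman's rho 0.842 over the 20 animals (p = 0.00022 and 0.00055, permutation test within conditions, 100000 resamples, two-sided). Adjusted over the 6 relations computed, these were 0.00066 and 0.0033. Without BNS replicate 3 and BYP replicate 3, the 2 animals farthest from the median of Agrp, r was 0.862 (p = 0.0105, permutation test).

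Over the 20 animals without this removal, r was 0.591 and rho 0.501 (p = 0.00533 and 0.0264, permutation test), and without the same 2 animals r was 0.452 (p = 0.0601, permutation test). Across all conditions the p was thus above 0.05 without both animals, on a smaller n. There r kept its sign and most of its size, while rho fell to 0.329 (p = 0.182, permutation test). Among the 16 betamethasone animals alone r was 0.846 (p = 2e-05, permutation test), and 0.743 without those 2 animals (p = 0.00189, permutation test). Leaving out 1 animal at a time, BYA replicate 3 included, kept the within-condition r between 0.895 and 0.948. The replicate with the highest value carried Cy3 in SNS, BNS and BYP, and the dye was a term of the fit, in which Cy5 minus Cy3 was -0.24 for Agrp and 0.12 for Npy.

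**Figure D4:**
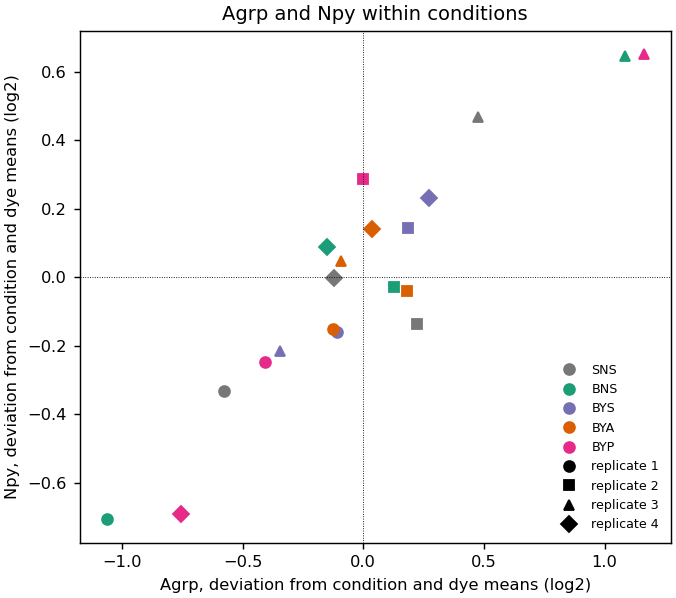
Deviation of each of the 20 animals from its condition and dye means in log2 level, Agrp on the horizontal and Npy on the vertical axis, with colours for the condition and symbols for the replicate number. The points follow 1 rising line (r = 0.926), with BNS replicate 3 and BYP replicate 3 at the upper end and BNS replicate 1 and BYP replicate 4 at the lower end.

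By this measure each of the 2 was the gene most like the other. Of 16298 genes, Npy had the highest r with Agrp within conditions, and Agrp the highest with Npy, and both held first place under the 4 other scalings, with r from 0.865 to 0.928. Next for Npy was Ghrh (r = 0.841), which encodes the growth hormone-releasing hormone of another set of arcuate neurons, followed by a sequence without a gene symbol, Trim35 (0.832) and Cited1 (0.815), a transcriptional co-regulator. For Agrp the next were the same sequence without a symbol, Mia (0.865), F2 (0.848), the gene of prothrombin, and Cited1 (0.846). With only the dye removed, Npy came 68th for Agrp (r = 0.640) and the top genes were Cited1 (0.803), a further sequence without a symbol, Zfp483 (0.762), Col22a1 (0.761) and Noxa1 (0.759). For Npy they were Trim35 (0.853), Aamdc (0.841), Rgs9 (0.823), Ghrh (0.822) and Ttc21a (0.799). These values describe 20 animals that share 11 arrays, and carry no test.

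Markers of the arcuate nucleus and of its surroundings moved with this variation. Over the 20 animals, with condition means and dye removed, the mean log2 level of 10 arcuate genes without Agrp and Npy had r = 0.73 with Agrp and 0.69 with Npy. The genes of this list did not all move alike. Pomc, the precursor of the melanocortin peptides, had r = 0.734 with Agrp and 0.621 with Npy. Kiss1, Tac3, Ghrh, Tbx3, Prlr and Th also had positive r with both. Negative values came from Slc6a3 (-0.635 with Agrp and -0.538 with Npy), Ghsr (-0.154 and -0.043) and Cartpt (-0.055 and -0.158). Lists for ependyma and tanycytes, the cells that line the ventricle beside the nucleus, had 0.66 and 0.65. Oligodendrocyte genes went the other way, with -0.67 and -0.68, as did genes of the thalamus (-0.47 and -0.44), of magnocellular and paraventricular neurons (-0.52 and -0.40) and of the lateral hypothalamus (-0.47 and -0.33). The ventromedial hypothalamus, pituitary and red blood cell lists lay between -0.24 and 0.18, and the cortex and choroid plexus lists between 0.34 and 0.48. Some lists depended on the measure. With the summed linear level, to which bright genes add most, the cortex and striatum list had 0.66 with Agrp and 0.69 with Npy, the pituitary list 0.45 and 0.51 and the magnocellular list -0.06 and 0.04, while the arcuate list had 0.70 and 0.62 and the oligodendrocyte list -0.63 and -0.65. With the arcuate mean removed as well, the r of Agrp with Npy was 0.852, and with the oligodendrocyte and ependyma lists also removed it was 0.783. The genes of the arcuate list did not all move alike, so its mean need not capture how much of the nucleus a sample held. The part of tissue composition in this correlation was not tested. In pieces of tissue such as these, fewer AgRP neurons and less transcript per neuron cannot be told apart.

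**Figure D5:**
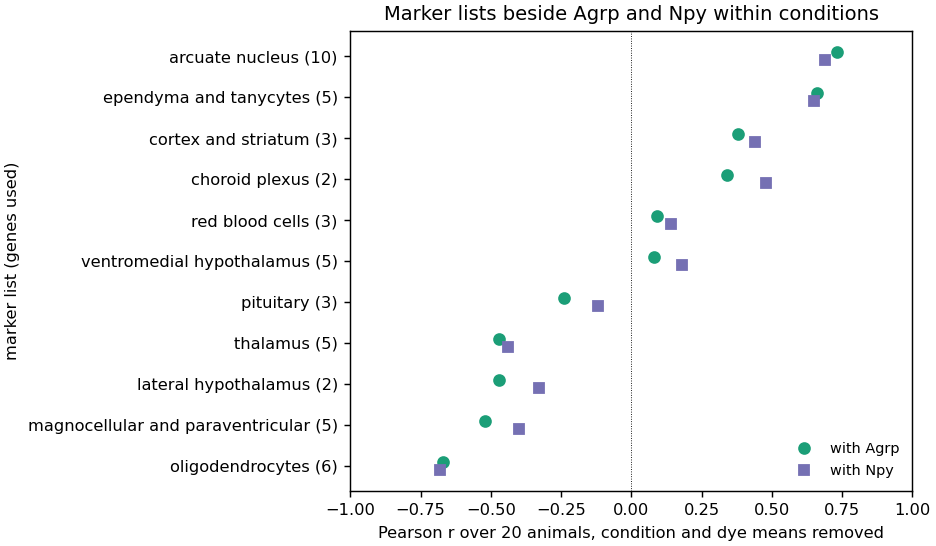
Pearson r over 20 animals, with condition and dye means removed, between the mean log2 level of each marker list (vertical axis, number of genes used in brackets) and Agrp (circles) or Npy (squares). Arcuate and ependymal lists lie at 0.65 to 0.73, and the oligodendrocyte list lies at -0.67 and -0.68.

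The tissue carried the markers of its label. Of 12 arcuate genes 7 were well above background in all 20 samples, among them Pomc and Cartpt, while Slc17a7 and Tbr1, which mark cortical excitatory neurons, and Prl, the pituitary hormone prolactin, were above it in none. The summed linear level of the arcuate list ran from 51383 to 62728 in SNS and from 34032 to 55904 in BYS, where Npy was called. It ran from 41274 to 63586 in BNS, from 37843 to 56435 in BYA and from 41208 to 71235 in BYP. The median was 55647 in SNS and lower in each other condition: BNS had 46289 and BYS 43446, while BYA had 51805 and BYP 45026. The choroid plexus list, with Ttr and Folr1 well above background in all samples, ran from 3882 to 7417 in SNS and from 2274 to 4095 in BYS. The part of either list in the Npy difference was not tested.

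The peptides that oppose AgRP neurons showed no called difference. Pomc read 14.68 on average in SNS and 14.30 to 14.50 in the other conditions, with a difference of -0.38 in BYS minus SNS (SE 0.272, limma adjusted p = 0.304). Cartpt, whose peptide is also anorexigenic, differed by -0.24 there (limma adjusted p = 0.318). None of the 10 comparisons was called for either gene.

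Of 67 genes in 7 lists on the AgRP neuron, its receptors and its inputs, 57 were tested. In the 4 comparisons with SNS between 17.5% and 22.8% of them were called, beside 27.1% to 31.3% of all genes, and in the 6 others none was. Thus no gene of the lists was called for spasms against no spasms or for a treatment against saline. The calls against SNS named here therefore stand beside at least 27.1% of all genes called, and SNS lies on 1 slide.

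Among 7 tested receptors and partners, Mc4r, the receptor through which agouti-related peptide acts on appetite, rose against SNS in all 4 conditions. The differences were 0.42 in BNS, 0.54 in BYS, 0.52 in BYA and 0.52 in BYP (limma adjusted p from 0.00553 to 0.0221). Its mean level was 8.00 in SNS and between 8.42 and 8.54 elsewhere, and it was well above background in 17 of the 20 samples. Npy1r fell in BYP by 0.42 on the log2 scale (limma adjusted p = 0.0456), and Sdc3, a syndecan that helps agouti-related peptide at its receptor, fell in BNS by 0.29 (limma adjusted p = 0.0425). Mc3r and Npy5r passed in no comparison, with Mc3r between -0.09 and 0.24 and Npy5r between -0.17 and 0.23 against SNS. Npy2r was well above background in 5 samples and was not tested. The median of the list against SNS lay between -0.06 and 0.04, beside -0.04 to -0.03 for all genes.

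Of the 8 genes that process neuropeptides, 2 or 3 rose against SNS in each of the 4 comparisons, and 1 or none fell. Among all genes, 14.5% to 15.8% were called higher and 12.6% to 15.4% lower. Cpe, the carboxypeptidase that trims peptide ends, differed by 1.00 to 1.03 in the 4 conditions (limma adjusted p from 0.000706 to 0.000989), with 1 SNS value missing. Furin, a convertase, rose by 0.53 to 0.79 (limma adjusted p from 0.00011 to 0.00316). Pcsk2, the convertase of late secretory granules, rose in BYS by 0.50 and in BYA by 0.60 (limma adjusted p = 0.0131 and 0.00347). Pcsk1, its partner enzyme, differed by 0.06 to 0.34 and was not called. Pam, the amidating enzyme that completes neuropeptide Y, fell in BNS by 0.75 on the log2 scale (limma adjusted p = 0.0234). The median of the 8 genes lay between -0.02 and 0.10 against SNS, beside -0.04 to -0.03 for all genes.

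For GABA release, Gad2, which makes GABA, rose in BYS, BYA and BYP by 0.69, 0.79 and 0.67 (limma adjusted p from 0.015 to 0.0365), and its difference in BNS was 0.48 (adjusted p = 0.118, limma). Gad1 lay between -0.05 and 0.14 and the vesicular transporter Slc32a1 between -0.37 and -0.25, the latter with 1 SNS value missing, and neither was called.

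Of 14 tested genes for hormone receptors and signalling, 2 or 3 rose in each comparison with SNS and none fell. Of all genes, 14.5% to 15.8% were called higher in these comparisons and 12.6% to 15.4% lower. Irs2, an adaptor of the insulin receptor, rose in all 4, from 0.42 in BNS to 0.93 in BYP (limma adjusted p from 0.000254 to 0.0489). Ptpn1, a phosphatase that dampens leptin and insulin signals, rose in BYS by 0.77, in BYA by 0.71 and in BYP by 0.98 (limma adjusted p from 0.00193 to 0.0144). Stat3, which carries the leptin signal to the nucleus, rose in BYP by 0.98 (limma adjusted p = 0.0166), and Prkaa1, a subunit of the energy sensor AMPK, in BYA by 0.46 (limma adjusted p = 0.0236). Insr and the ghrelin receptor gene Ghsr were called in no comparison. Prkaa1 and Insr were well above background in 12 of the 20 samples, and Ghsr in 14. Lepr, the leptin receptor, was well above background in 4 samples and was not tested. The median of the list was 0.11 to 0.27 against SNS, beside -0.04 to -0.03 for all genes.

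Of the 8 tested transcription factors and partners of AgRP neurons, Bsx, a homeobox gene needed for their expression of Agrp and Npy, lay between -0.06 and 0.02 against SNS and was not called. It was well above background in only 12 of the 20 samples. Klf4 rose in BYS by 0.71 and in BYA by 0.67 (limma adjusted p = 0.0226 and 0.0261). Vgf, a secreted granule protein, rose in BYP by 0.49 (limma adjusted p = 0.0296). Creb1 fell in BNS by 0.59 and Nhlh2 in BYP by 0.55 on the log2 scale (limma adjusted p = 0.00739 and 0.0158). Nhlh2 was well above background in 12 of the 20 samples. Otp was well above background in 5 samples and was not tested.

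Of 14 tested peptides of other hypothalamic neurons with a part in feeding, 3 are named by the rule. Nucb2, the precursor of nesfatin, rose in BNS by 0.96, in BYS by 0.66 and in BYP by 0.71 (limma adjusted p from 0.00122 to 0.0161). Trh, thyrotropin-releasing hormone, fell in BYA by 0.68 on the log2 scale (limma adjusted p = 0.0266). Nmu, neuromedin U, fell in BNS by 0.55 and in BYA by 0.52 (limma adjusted p = 0.0126 and 0.0155).

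The 250 bases before the RefSeq start of each gene (GRCr8) were set side by side. Agrp lies at chr19:50359498-50359747 on the minus strand and Npy at chr4:80211861-80212110 on the plus strand. Capitals mark each CANNTG (the E-box core) and each TAAT (the core bound by many homeodomain proteins), searched on both strands, so that ATTA is TAAT on the other strand.

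Agrp upstream: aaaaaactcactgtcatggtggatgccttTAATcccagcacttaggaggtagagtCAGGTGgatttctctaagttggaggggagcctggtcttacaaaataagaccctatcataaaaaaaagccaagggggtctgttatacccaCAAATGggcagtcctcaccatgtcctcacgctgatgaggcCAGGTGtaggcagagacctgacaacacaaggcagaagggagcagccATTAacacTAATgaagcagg

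Npy upstream: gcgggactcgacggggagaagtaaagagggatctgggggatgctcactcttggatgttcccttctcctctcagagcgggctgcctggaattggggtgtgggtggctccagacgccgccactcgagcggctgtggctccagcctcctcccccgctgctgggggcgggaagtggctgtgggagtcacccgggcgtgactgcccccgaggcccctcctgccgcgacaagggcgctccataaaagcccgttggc

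The Agrp stretch held 3 CANNTG, which began at -195, -106 and -66 from the start of the gene, and 3 TAAT, at -221, -20 and -12. The Npy stretch held neither. Of 33469 RefSeq promoters, 65.5% held CANNTG in the same window and 57% held TAAT. The glucocorticoid receptor half-site AGAACA was in neither stretch and in 17.5% of all promoters. None of the marked letters overlapped with one another.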

How the data were processed

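The authors deposited 1 file per two-colour rat array with the intensity of each spot and channel (extraction software 11.5.1.1 per the file headers, 10.7.3.1 per the submitters' processing notes). The deposited mean signals and local backgrounds are intensities before normalization, and the deposited processed signals are intensities after background subtraction and dye normalization by the software. Flags mark spots well above background, outliers and saturation. Each channel is 1 animal. On 2 arrays the other channel holds a male rat of another series, and 82 columns of this kind were not used.

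Background was corrected with normexp (offset 50). Quantile normalization of the log2 values covered the 20 channels together, and 1.18% of spot values, marked as outliers, were dropped. To pass the filter, a probe needed 0.5 or more of its spots flagged well above background in each of the 4 animals of some condition. Probes of a gene were averaged. For 787 of the 17086 genes a sample had no value, and the fit dropped it. Accessions of 61.4% of probes matched RefSeq. Groups were compared with limma 3.58.1 (R 4.3.3), with 1 model over 20 animals, dye as covariate and Benjamini-Hochberg adjustment over all genes. Agrp minus Npy was tested by exact permutation and correlations by 100000 permutations, two-sided. The scripts were tested on simulated data. Alternatives covered scaling, filters, outlier spots, blocks, probes, other tests and left-out animals. The number of arrays limits the precision.

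The labels tie no animal to a litter. Replicate numbers did not mark pairs (mean r between conditions 0.0031, from -0.239 to 0.28). No probe was matched for the 6 genes of a sex check, so BYA replicate 3 was not checked in this way. The 2 genes and the lists were chosen with earlier results of these data known. Other genes are named if called, at most 4 per list by size, if they ranked in the first 5 by correlation, or if they belong to a preset group of receptors, enzymes and peptides. Of the genes this rule selects, 1 is not reported here.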

Additional observations from a re-analysis of the deposited data

How the results depend on the processing

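Agrp passed the threshold in no comparison under any alternative run. The Npy difference of BYS minus SNS kept its sign in all of them. It lost its call with processed signals (-0.54, limma adjusted p = 0.233), scaling to the same median (-0.78, 0.0725), loess on 9 arrays (-0.73, 0.063), no filter (-0.75, 0.0603), the array as a random block (-0.75, 0.17) and A_64_P137042 alone (-0.78, 0.0625). The study's unequal-variance test gave -0.75 (adjusted p = 0.0865), with an adjustment over all genes that the study does not name and without its cut-off on the ratio. The exact permutation test gave -0.75 (adjusted p = 0.286), a test in which a comparison alone at the smallest possible p cannot pass. The replicate block gave -0.75 (adjusted p = 0.0209) and changed no other call of the 2 genes. With scaling to the same median, Npy was called in BNS minus SNS (-0.91) and BYP minus SNS (-1.05) and over the 5 conditions (F = 5.04), and with the slide as a random block over the 5 conditions (F = 3.59). Slides lie within conditions and their fitted correlation was negative (-0.128), which makes the errors of that fit smaller.

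Signs turned only for differences that were not called. With processed signals Agrp gave -0.01 for BYA minus BNS, -0.15 for BYS minus SNS and -0.09 for BYP minus SNS, Npy gave 0.05 for BYA minus BNS, and Agrp minus Npy gave -0.14 for BYA minus BYS and -0.06 for BYA minus BNS. With scaling to the same median Agrp gave -0.02 for BNS minus SNS, 0.20 for BYS minus BNS, -0.47 for BYP minus BYS and -0.28 for BYP minus SNS, and Npy gave 0.13, -0.27 and 0.45 for BYS minus BNS, BYP minus BYS and BYA minus BNS. Npy also gave 0.17 for BYA minus BNS with the 75th percentile and 0.03 for BYP minus BYA with loess. The cause was not tested.

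Leaving out 1 animal at a time, Npy in BYS minus SNS ran from -0.86 to -0.58. Differences whose sign depended on 1 animal ran as follows. Agrp ran from -0.02 to 0.36 in BYS minus SNS, -0.13 to 0.56 in BYP minus SNS, -0.67 to 0.10 in BYS minus BNS, -0.28 to 0.49 in BYA minus BNS, -0.60 to 0.20 in BYP minus BNS and -0.32 to 0.37 in BYP minus BYS. Npy ran from -0.28 to 0.21 in BYA minus BNS, -0.34 to 0.16 in BYP minus BNS and -0.30 to 0.18 in BYP minus BYA. Agrp minus Npy ran from -0.08 to 0.26 in BYS minus BNS, -0.02 to 0.33 in BYA minus BNS and -0.33 to 0.11 in BYP minus BNS, and from 0.55 to 1.1 over the 4 comparisons with SNS. The number of genes called moved more than the values of the 2 genes. In BYS minus SNS it was 4633 (2483 higher and 2150 lower), 1446 with scaling to the same median (954 and 492), 2377 with the array as a random block (1570 and 807) and 7859 with the slide as a random block. With scaling to the same median or 75th percentile the median difference of all genes there was -0.13 and -0.20, beside -0.03 in the main setting. Npy relative to the median of each scaling was -0.57 to -0.72.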
